A study of Mus musculus with 384 samples.

Results

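Regulatory T (Treg) cells were sorted singly from the ear skin of mice that received vehicle, and 120 of them were kept for description. A well was kept when at least 500 genes had a count and the counts summed to at least 10000. Of 87 single-cell wells on each plate, 62 (71.3%) were kept on plate 1 and 58 (66.7%) on plate 2. The whole experiment comprised 4 such plates, with 87 single-cell wells, 4 wells of 10 cells and 5 empty wells on each. Vehicle was put on both sides of the ears under isoflurane anaesthesia, 3 times from day 0, and the mice were killed on day 3. Vehicle came from 2 mice in all, and the labels do not tie a plate to a mouse. The labels used here give no strain, genotype, sex or age, and nothing on the gate used for sorting. Each plate was therefore treated as 1 sample (n = 2), the cells of a plate were not counted as replicates, and no test was run. A difference between the plates may come from the plates or from the animals, and these cannot be told apart. The experiment also held imiquimod-treated skin, which was not used here.

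Treg cells are CD4 T cells that restrain immune responses, and the transcription factor Foxp3 defines the lineage. They depend on interleukin 2, which they bind through a receptor whose alpha chain is encoded by Il2ra, and they carry inhibitory and costimulatory receptors such as Ctla4 and Icos. Treg cells that settle in skin and other barrier tissues are known for the transcription factor Gata3, the interleukin 33 receptor (Il1rl1) and growth factors that act on the tissue.

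The cells were marked by Foxp3, Il2ra, Ikzf2 (the transcription factor Helios), Gata3, Icos and Traf1, a signalling adaptor of the TNF receptor family. The bases before the annotated starts of Foxp3, the gene that names the lineage, and of Il2ra, the highest of the 6 per length of exon, are shown to place these markers in the genome. They are the 250 bases upstream of each start in RefSeq on GRCm38.p6, read 5′ to 3′ on the strand of the gene, whereas the counts were made on mm39. Foxp3 has 2 starts in that table. In the Foxp3 windows capitals mark GATAA on either strand, and in the Il2ra window they mark a form of the NF-kB motif.
Foxp3, chrX:7579426-7579675, plus strand: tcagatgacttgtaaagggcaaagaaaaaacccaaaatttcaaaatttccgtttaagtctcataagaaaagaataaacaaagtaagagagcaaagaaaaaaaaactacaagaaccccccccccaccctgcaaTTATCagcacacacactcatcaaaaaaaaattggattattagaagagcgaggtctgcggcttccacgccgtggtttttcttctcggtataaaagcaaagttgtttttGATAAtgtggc
Foxp3, chrX:7580233-7580482, plus strand: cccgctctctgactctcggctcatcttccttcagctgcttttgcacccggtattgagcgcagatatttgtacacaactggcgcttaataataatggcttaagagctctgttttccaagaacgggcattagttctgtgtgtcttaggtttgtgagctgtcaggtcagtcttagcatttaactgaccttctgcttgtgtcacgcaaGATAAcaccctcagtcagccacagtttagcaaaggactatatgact
Il2ra, chr2:11642542-11642791, plus strand: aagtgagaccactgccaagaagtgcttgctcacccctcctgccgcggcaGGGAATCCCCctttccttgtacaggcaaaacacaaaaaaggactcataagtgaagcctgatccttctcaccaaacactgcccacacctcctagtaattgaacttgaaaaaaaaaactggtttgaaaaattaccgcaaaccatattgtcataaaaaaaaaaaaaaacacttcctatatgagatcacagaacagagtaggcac
The motifs searched on both strands were GATAA (known from GATA factors), TGANTCA (AP-1), TGACG (CREB), TGTGGT (Runx), CCGGAA (Ets), the NF-kB motif and TATAAA (the TATA box), and overlapping matches were not removed. Over all 32536 windows of this length, GATAA was found in 22.5%, the NF-kB motif in 17.7% and TATAAA in 12.3%. The others were found in 6.73% (TGANTCA), 17.9% (TGACG), 14.0% (TGTGGT) and 12.1% (CCGGAA). The Foxp3 window that lies further upstream held 2 matches of GATAA and 1 of TATAAA, and the other held 1 match of GATAA. The window of Gata3, chr2:9878601-9878850 on the minus strand, held 1 match each of CCGGAA and the NF-kB motif. Traf1, chr2:34961773-34962022 on the minus strand, held 1 match of TGTGGT. Such matches occur before many genes and describe these windows only.

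The wells differed widely in depth. Kept cells held 87785 to 5841920 counts on plate 1 (median 812852) and 147267 to 5946386 on plate 2 (median 1213430). Genes with a count ranged from 508 to 6168 on plate 1 (median 1040) and from 507 to 8033 on plate 2 (median 1503). After each cell was thinned to 200000 counts, the median was 725 genes on plate 1 and 968 on plate 2. Most wells left out were not shallow, since 21 of the 25 left out on plate 1 and all 29 on plate 2 held at least 10000 counts. The 5 wells just below the gene line had 469, 475, 482, 485 and 499 genes, and the 5 just above it had 507, 508, 525, 528 and 537. On plate 1 the 5 wells without a cell held fewer than 1000 counts each. On plate 2 they held 0, 0, 144027, 428587 and 1527760 counts, and the deepest, with 885 genes, met both lines set for a cell. None of these 10 wells had a count of the 6 markers, although only 3 of them had 10000 counts or more. A count of 0 in 10 wells allows a share of up to 30.0%, and a count of 0 in the 120 cells allows up to 2.5%. These limits and the binomial intervals below cover counting error only.

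Foxp3 had a count in 24 cells of plate 1 (38.7%) and 23 cells of plate 2 (39.7%), or 47 of 120 in all (39.2%, 95% exact binomial interval 30.4 to 48.5). Levels are given as CPM, a cell's counts scaled to a total of 1000000 in every cell. Among plate 1 cells with a count, Foxp3 ranged from 1.97 to 40159 CPM with a median of 795, and on plate 2 from 0.265 to 6394 CPM with a median of 455. Cells without Foxp3 and cells with high Foxp3 were both common, and few lay between, since 42 of the 47 had at least 10 CPM and 37 at least 100 CPM. Mean Foxp3 over cells was 1132 CPM on plate 1 and 357.04 CPM on plate 2, and without the highest cell of each plate it was 492 and 251.1 CPM. At full depth the plates thus agreed in how many cells held Foxp3, to within 1 percentage point, and differed in its mean level.

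Il2ra was found in 37 cells of plate 1 (59.7%) and 34 of plate 2 (58.6%), 71 in all (95% interval 49.8 to 68.0). Its level in cells with a count ran from 4.55 to 36265 CPM on plate 1 (median 1506) and from 0.863 to 43753 CPM on plate 2 (median 1385). Ikzf2 was found in 39 cells (62.9%) and 36 cells (62.1%), 75 in all (interval 53.2 to 71.2). It ran from 3.70 to 41575 CPM on plate 1 (median 2553) and from 1.27 to 88120 CPM on plate 2 (median 2490). Of the 75 cells with Ikzf2, 72 had at least 10 CPM and 69 at least 100 CPM, and in 9 cells no other gene had more counts. Both genes were thus detected in more cells than Foxp3, and the ranges of the plates overlapped.

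Traf1 had a count in 38 cells of plate 1 (61.3%) and 38 of plate 2 (65.5%), 76 in all (interval 54.0 to 71.9), the largest number of the 6. It ran from 1.59 to 23005 CPM on plate 1 (median 1421) and from 1.19 to 9855 CPM on plate 2 (median 965). Icos was found in 27 cells (43.5%) and 23 cells (39.7%), 50 in all (interval 32.7 to 51.0), with medians of 2105 and 969 CPM in those cells. Gata3 was found in 31 cells (50.0%) of plate 1 and 20 (34.5%) of plate 2, 51 in all (interval 33.5 to 51.9). Its median in cells with a count was 116.3 CPM on plate 1 and 552 CPM on plate 2, and only 36 of the 51 cells had at least 10 CPM. At the full depth of the cells Gata3 was the marker whose share differed most between the plates (42.2% ± 11.0, SD of n = 2 plates), against 39.2% ± 0.669 for Foxp3, 59.1% ± 0.747 for Il2ra and 62.5% ± 0.590 for Ikzf2. After thinning to 200000 counts this was no longer so. Gata3 was then found in 39.0% and 33.3% of cells, a smaller gap than those of Icos (45.8% and 36.8%), Il2ra (59.3% and 52.6%) and Ikzf2 (66.1% and 59.6%). Thinned Foxp3 was found in 39.0% and 35.1%, and thinned Traf1 in 59.3% and 59.6%. The mean of Gata3 over cells was 419 CPM on plate 1 and 434 CPM on plate 2, the closest pair among the 6.

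Per kilobase of exon, the mean over cells and plates was 531 CPM for Il2ra, 436 for Ikzf2, 290 for Icos, 186.05 for Traf1, 162.6 for Foxp3 and 107.2 for Gata3. The exon lengths are those of GENCODE M21 on GRCm38, whereas the counts were made on mm39. The order of neighbours was not fixed beyond the plates' spread, because on the mean CPM of each plate Icos ranged from 674 to 1314 and Foxp3 from 357.04 to 1132. Each of Foxp3, Il2ra, Ikzf2, Gata3 and Icos had a count in all 16 wells of 10 cells of the experiment, and Traf1 in 15 of them.

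**Figure D1:**
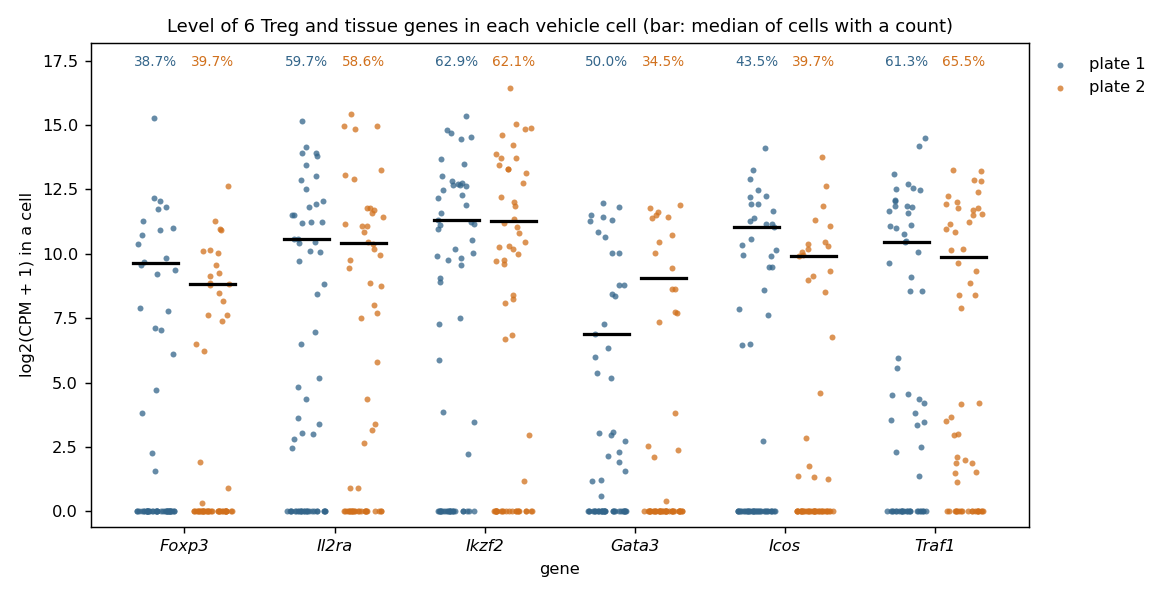
Each point is 1 vehicle cell, the vertical axis is log2(CPM + 1), and the columns are the 6 markers on plate 1 (blue, 62 cells) and plate 2 (orange, 58 cells). Bars are medians of the cells with a count, percentages are shares of cells with a count, and points at 0 are cells without one. The shares of Foxp3 were 38.7% and 39.7%, while those of Gata3 were 50.0% and 34.5%.

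Few genes were found in most of the cells. A count in any kept cell was recorded for 26101 genes, of which 6528 were found in 1 cell only. At least 10% of the cells had a count of 5706 genes, 25% of 1356 genes, 75% of 18 genes and 90% of 5 genes. At 50% of the cells the genes were 0.594% of those found. When at least 10 CPM was required, the numbers were 2298 genes at 10%, 423 at 25%, 33 at 50%, 6 at 75% and 2 at 90%. The median gene was found in 3.34% of the cells. The genes found in 50% of the cells were long, with a median genomic span of 143.1 kb against 20.2 kb for all genes found. In 45 of them (29.0%) the median level of the cells with a count was under 10 CPM, and in 92 (59.4%) it was at least 100 CPM.

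The most often detected gene was Chl1, which encodes a neural cell adhesion molecule. It had a count in 60 of 62 cells (96.8%) of plate 1 and 56 of 58 (96.6%) of plate 2, at a mean of 1065 and 444 CPM, and it reached 10 CPM in 58 and 54 cells. The nuclear RNA Malat1 followed with 61 and 52 cells (98.4% and 89.7%), at a mean of 3026 and 1805 CPM. Actb, the cytoskeletal actin, was found in 54 cells of each plate (87.1% and 93.1%), at 2597 and 3672 CPM. Chl1 had a count in 2 of the 10 wells without a cell on these plates, and Malat1 and Actb in 3 each. Malat1 had 13307 counts in the empty well of 1527760 counts, which relative to that total was above its mean level in cells. Relative to its total, the empty well of 144027 counts likewise held more Chl1 than the cells did on average.

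Frequent detection did not always go with a high level. Dach2, a transcription cofactor, had a count in 57 and 50 cells (91.9% and 86.2%), but its median in those cells was 3.84 CPM, only 15 cells reached 10 CPM, and 7 of the 10 wells without a cell also held it. Zfp599, a zinc finger gene, was found in 87.1% and 89.7% of cells at a median of 2.21 CPM in them, with 11 cells at 10 CPM. Trim30a had a count in 91.9% and 79.3% of cells at a median of 5.05 CPM, and again in 7 of the 10 wells without a cell. Katnbl1 (median 1.89 CPM) and Sntg1 (median 3.39 CPM) were found at such levels in 72.5% and 72.7% of the cells. The immunoglobulin loci Igk (88.4% of cells as a mean of the plates) and Igh (81.6%) also belonged here, with medians of 5.54 and 3.95 CPM in cells with a count. Igk had 4378 counts in the well without a cell that held 428587. The B cell genes Cd79a, Cd79b and Ms4a1 had no count in any kept cell. Of the 20 genes with the largest share, 14 had a count in at least 1 of the 10 wells without a cell, against 8 of the 20 with the highest mean level.

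Other genes among the 20 most often detected had levels far above a trace. H2-K1, an MHC class I heavy chain, was found in 77.4% and 75.9% of cells, at a median of 2587 CPM in those cells. Lmna, which encodes the nuclear lamins A and C, was found in 72.6% and 70.7%, at a median of 2870 CPM. Dennd4a was found in 74.2% and 81.0% (median 2197 CPM), Dock2, a regulator of lymphocyte migration, in 75.8% and 79.3% (647 CPM), Sik3, a kinase, in 71.0% and 70.7% (1332 CPM), and Cmip in 74.2% and 70.7% (739 CPM). Fnbp1 (median 897 CPM) and the AP-1 subunit Junb (1155 CPM) completed this group. The T cell receptor loci Tcra and Tcrb, described below, were also among the 20, at lower medians of 4.91 and 31.8 CPM.

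The gene with the highest mean CPM was Ikzf2, at 4177 CPM on plate 1 and 5957 on plate 2. Dennd4a came next, at 4494 and 3942 CPM, followed by the intermediate filament gene Vim at 4062 and 3969 CPM and Lmna at 3755 and 3470 CPM. The other genes among the highest 20 were Actb, Il2ra, H2-K1, Sik3, Camk2b, Malat1, H2-D1, Cmip, Rora, Kdm2b, Itgav, Ets1, Atxn1, Prkch, Actg1 and Myo1e, down to a mean of 1660 CPM. They include the lymphocyte transcription factors Rora (3063 and 1358 CPM) and Ets1 (1310 and 2242 CPM), the integrin chain Itgav (2236 and 1682 CPM) and the protein kinase C gene Prkch (2497 and 951 CPM). Rora, Prkch and Camk2b (3316 and 1654 CPM) differed by more than 2-fold between the plates on this mean, while Vim, Lmna and H2-D1 (2310 and 2297 CPM) were nearly equal. Of these 20 genes, 7 were also among the 20 most often detected and 10 among the 20 highest by the median over cells.

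Per kilobase of exon the order changed, and 8 of the 20 stayed among the highest 20. Actb led with 1170 CPM per kb, before H2-K1 with 1023, H2-D1 with 893, B2m (the class I light chain) with 874, and Vim with 847. Nfkbia, the inhibitor of NF-kB, had 767 CPM per kb, Actg1 639, Lmna 619, and the costimulatory receptor Tnfrsf4 (OX40) 575. Within single cells the top place was spread over many genes. In the 120 cells 79 different genes had the most counts of a cell, Ikzf2 in 9 cells, Vim in 8, Il2ra in 6, Actb in 5 and Dennd4a in 4. The leading gene took a median of 2.48% of a cell's counts on plate 1 and 2.00% on plate 2, and at most 15.4% and 15.9%.

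**Figure D2:**
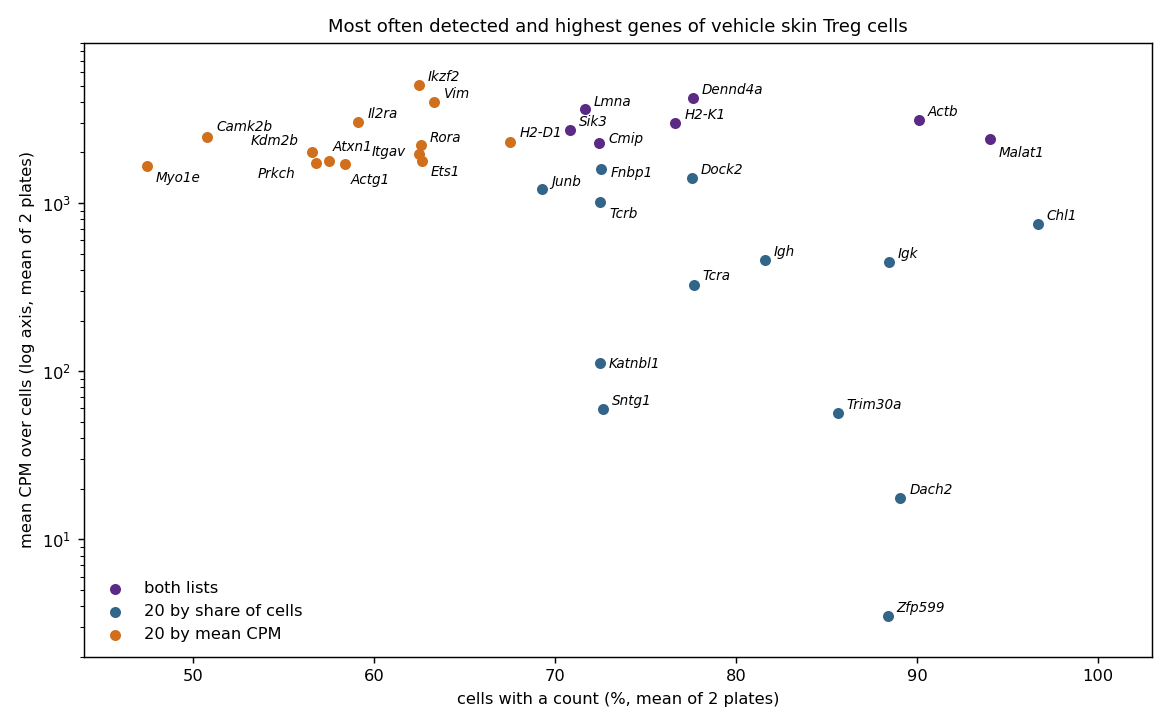
The horizontal axis is the percentage of vehicle cells with a count and the vertical axis the mean CPM over cells on a log scale, both as means of the 2 plates, for the 20 most often detected genes (blue), the 20 with the highest mean CPM (orange) and the 7 in both lists (purple). Dach2, Trim30a and Zfp599 lie at the lower right, found in 85.6 to 89.1% of cells at a mean of 3.50 to 56.3 CPM.

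The plates were close in how often genes were found and far apart in how high they were. Over 11876 genes with at least 10 CPM in the summed counts of a plate, the shares of cells with a count had a Pearson correlation of 0.896 (Spearman 0.795), and the log2(mean CPM + 1) over cells one of 0.229 (Spearman 0.262). These are descriptions across genes, which are not independent, and they carry no test. In the summed counts 8472 of these genes (71.3%) differed by at least 2-fold, 4939 (41.6%) higher on plate 2 and 3533 (29.7%) lower. A gene that passed the level filter through 1 plate alone had to be higher on that plate, though not always by 2-fold. The median log2 difference of plate 2 over plate 1 was 0.35, and with TMM scaling it was 0.06. Without the 31 cells that held genes of another cell type, described at the end, it was -0.04, with 3826 genes higher on plate 2 and 3905 lower. Agreement rose with the number of cells behind a value. Among the 17 genes in at least 75% of cells the Spearman correlation of levels was 0.912 and 23.5% differed by 2-fold. It was 0.827 for genes in 50 to 75% of cells (25.7% past 2-fold), 0.597 for the 1088 genes in 25 to 50% (37.7%) and 0.099 for the 10635 genes in fewer cells (75.4%).

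**Figure D3:**
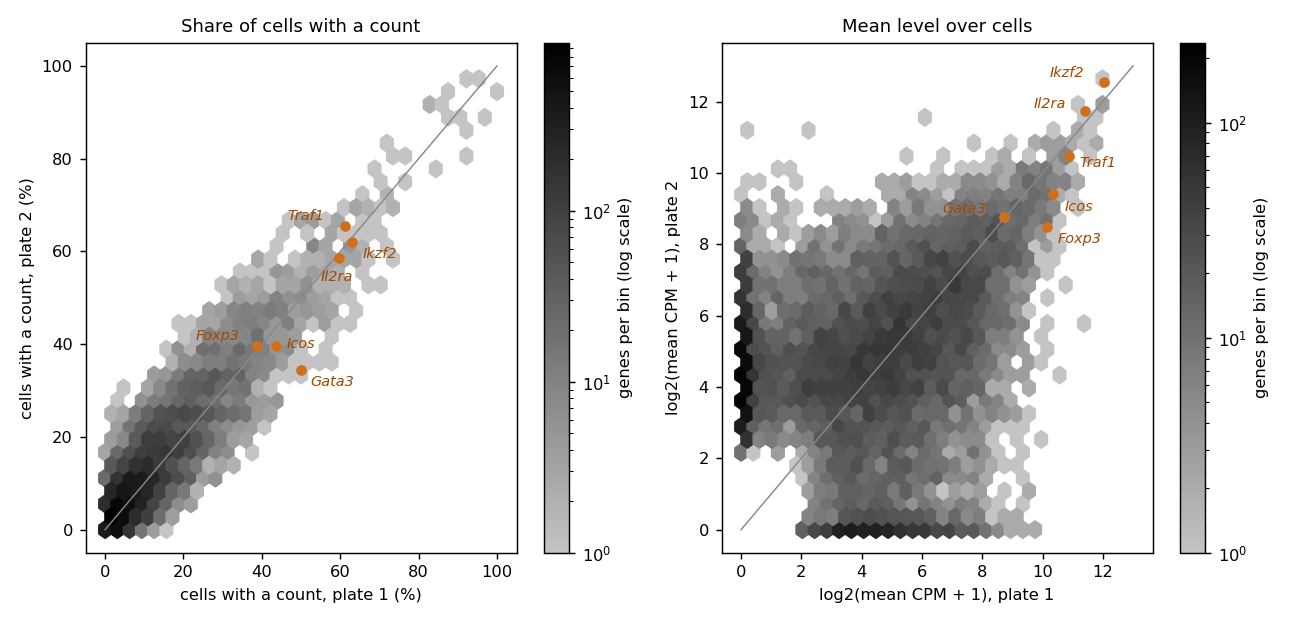
Left, the percentage of cells with a count on plate 1 (horizontal) and plate 2 (vertical). Right, log2(mean CPM + 1) over cells on the same axes. Each hexagon is shaded by the number of genes in it on a log scale, over the 11876 genes with at least 10 CPM on a plate. The line marks equal values and the orange points are the 6 markers, which all lie near the line on the left, Gata3 farthest from it.

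Of the 6 markers, all of which passed the filter, Foxp3 alone differed by 2-fold in the summed counts, at a log2 difference of -1.13. Icos was at -0.85, Il2ra at -0.25, Traf1 at -0.11, Gata3 at -0.09 and Ikzf2 at -0.08. With TMM scaling Icos passed the 2-fold line too. In Foxp3, 1 cell of plate 1 gave 28.6% of the plate's counts of the gene and 1 cell of plate 2 gave 29.7%.

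At full depth 1760 genes were found in at least 25% of the cells of a plate. After thinning to 200000 counts, the shares of these genes differed by a median of 5.44 percentage points between the plates. In 17 of them the difference was 20 points or more. The genes found more often on plate 1 were led by Trim30a (66.1% against 42.1% of thinned cells), Pde8a (27.1% against 3.51%), Cd28 (39.0% against 15.8%), Rabepk (40.7% against 17.5%), Antxr2 (57.6% against 35.1%) and Ust (39.0% against 17.5%). Cd28, the costimulatory receptor of T cells, had a count in 23 of 62 cells of plate 1 and 10 of 58 of plate 2, at a mean of 1331 and 217.8 CPM. The genes found more often on plate 2 were Muc2 (0% against 24.6%), Car1 (1.69% against 24.6%), Sprr2a1 (0% against 22.8%), Csnk1a1 (18.6% against 40.4%), Slc38a1 (13.6% against 35.1%) and Atp5b (10.2% against 31.6%).

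Muc2, Car1 and Sprr2a1 are known as epithelial genes, Muc2 as the main gel-forming mucin of the gut. At least 1 of them had a count in 21 of 58 cells on plate 2 and in 2 of 62 on plate 1. Muc2 and Sprr2a1 each had a count in 2 of the 5 wells without a cell on plate 2 and in none of the 5 on plate 1. In 1 of these wells Muc2 had 4112 counts and the gene with most counts was another mucin, Muc3, and in the deepest it was Lypd8, also known from gut epithelium. The part of this background in the other differences between the plates was not tested.

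The Treg identity genes were frequent but not uniform. Of 16 genes listed for Treg cells all had a count in some kept cell, 9 were found in at least 25% of the cells and 3 in at least 50%. Those 3 were the markers Il2ra, Ikzf2 and Traf1. The median share of the list was 28.0%, against 3.34% over all genes found. The list holds most of the markers and was chosen with earlier results known, so nothing is read from that comparison. At least 1 of the 16 had a count in all but 5 of the 120 cells, and a cell held a median of 4 of them on either plate. Their summed level had a median of 12100 CPM on plate 1 and 10751 CPM on plate 2. Ctla4, the inhibitory receptor, had a count in 33.9% and 32.8% of cells at a mean of 1051 and 586 CPM. The costimulatory receptors Tnfrsf18 (GITR) and Tnfrsf4 were found in 35.5% and 31.0%, and in 30.6% and 31.0%. Capg, an actin capping protein, was found in 22.6% and 27.6%, Ikzf4 (Eos) in 21.0% and 24.1%, and the inhibitory receptor Tigit in 17.7% and 20.7%. Nt5e, the ectoenzyme CD73, was found in 12.9% and 27.6% and Entpd1, the ectoenzyme CD39, in 6.45% and 12.1%. At the other end, Lrrc32 (GARP), which presents latent TGF-beta, was found in 9 cells, Izumo1r in 4 and Gpr83 in 1.

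In the summed counts 15 of these 16 genes passed the filter, 1 was at least 2-fold higher on plate 2 (Nt5e, log2 difference 1.78) and 4 lower (Foxp3, Ctla4 at -1.08, Tigit at -1.01 and Lrrc32 at -1.58). With TMM scaling 6 were lower, Icos and Capg in addition. The median of the 15 was -0.11. The share past 2-fold is below the 71.3% of all genes, but most of these members were found in many cells, where the share was 23.5 to 37.7%.

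Among the 30 genes listed for Treg cells of tissues, 12 were found in at least 25% of cells and 4 in at least 50%, and a cell held a median of 7 on either plate. The most frequent were Rora, in 59.7% and 65.5% of cells, and Itgav, a chain of the integrins that activate TGF-beta, in 62.9% and 62.1%. Dgat1, an enzyme of triglyceride synthesis, was found in 51.6% and 67.2%, the adhesion receptor Cd44 in 56.5% and 50.0%, and the TNF receptor Tnfrsf1b in 46.8% and 46.6%. Itgae (CD103), which binds E-cadherin on epithelium, was found in 37.1% and 37.9%, and Tnfrsf9 (4-1BB) in 45.2% and 36.2%. The interleukin 33 receptor Il1rl1 was found in 22 and 17 cells (35.5% and 29.3%), at a mean of 857 and 955 CPM. Areg, the growth factor amphiregulin, was found in 15 and 16 cells (24.2% and 27.6%) at a mean of 194.04 and 407 CPM, and 1 of the 10 wells without a cell held it. Il10, the inhibitory cytokine, was found in only 17 cells (14.5% and 13.8%), but at a median of 1289 CPM in them. Gzmb, a cytotoxic granule protease, was similar, with 25 cells (16.1% and 25.9%) and a median of 2275 CPM.

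The other tissue genes varied in how often they were found. The transcription factor Batf was found in 22.6% and 32.8% of cells, Irf4 in 12.9% and 13.8%, Maf in 17.7% and 22.4%, and Prdm1 and Pparg in 6 cells each. The chemokine receptor Ccr8 was found in 12.9% and 19.0%, Klrg1 in 17.7% and 20.7%, Lgals1 in 30.6% and 44.8%, Dgat2 in 19.4% and 22.4%, and Rgs1 and Rgs2 in 18 and 27 cells. Tgfb1 and Ebi3 had a count in 11 cells each, Nfil3 in 19, Fgl2 in 14, Nrp1 in 13 and Bcl2l11 in 10. Penk, the precursor of the enkephalin peptides, had a count in 1 cell of plate 1 and 5 cells of plate 2 (5.0% of all, 95% interval 1.86 to 10.6), at 0.445 to 32.6 CPM on plate 2, and 2 cells reached 10 CPM. Of 29 tissue genes that passed the filter, 4 were at least 2-fold higher on plate 2 (Batf 1.32, Ebi3 1.16, Rgs1 1.82 and Nrp1 1.74) and 2 lower (Rora at -1.06 and Maf at -1.38). With TMM scaling the counts were 3 and 3. Their median log2 difference was -0.09. The share past 2-fold lies below the 71.3% of all genes. That figure comes mostly from genes in fewer than 25% of cells, of which 75.4% were past it. Among genes in at least 25% of cells 23.5 to 37.7% were, so nothing is read from the number in this list.

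At least 1 T cell gene of the list had a count in all but 2 of the 120 cells. The T cell receptor loci Tcra and Tcrb had a count in 77.7% and 72.5% of cells as means of the plates, and 55 cells of plate 1 and 53 of plate 2 held at least 1 of them. The level was often low, since Tcra reached 10 CPM in 38 of its 93 cells and Tcrb in 55 of its 87, and 3 and 1 of the 10 wells without a cell held them. The symbols Trac, Trbc1 and Trbc2 were listed at 0 in every kept cell. A chain of the CD3 complex, the signalling part of the receptor, had a count in 50 cells, through Cd3e in 22.6% and 24.1% of cells, Cd3d in 19.4% and 8.62%, and Cd3g in 12.9% and 17.2%. The zeta chain Cd247 was found in 33.9% and 34.5%, and Cd4 in 25.8% and 34.5%, at a mean of 186.5 and 397 CPM. Among the kinases of receptor signalling, Lck was found in 33.9% and 36.2% of cells and Zap70 in 14.5% and 29.3%. The phosphatase Ptprc (CD45) was found in 53.2% and 46.6%, Cd2 in 27.4% and 34.5%, Cd6 in 25.8% and 32.8%, Cd5 in 21.0% and 27.6%, Lat in 19.4% and 20.7%, and Thy1 in 24.2% and 31.0% at a mean of 10.8 and 19.4 CPM. Of 17 members that passed the filter, Zap70 was higher on plate 2 (2.67) and Tcrb (-1.17), Cd3d (-1.26) and Cd28 (-1.58) were lower. With TMM scaling Cd6 and Ptprc were lower as well. Over all genes 71.3% were past 2-fold, and among those found in at least 25% of cells 23.5 to 37.7% were. Nothing is read from the number in this list.

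Most cells held several of the 6 markers and no fixed set of them. None was found in 10 cells, 1 in 16 cells, 2 in 26, 3 in 18, 4 in 18, 5 in 16 and all 6 in 16, with a median of 3 on each plate. At 10 CPM or more the median was 3 on plate 1 and 2 on plate 2. Of the 64 possible combinations of the 6 genes 47 were seen, 22 of them in 1 cell. The full set was the most frequent (16 cells), before none (10 cells), Ikzf2 alone (6 cells), and Il2ra with Ikzf2 and Traf1 (6 cells). Of the 73 cells without a Foxp3 count, 63 had another marker and 54 had Il2ra or Ikzf2. Foxp3, Il2ra and Ikzf2 were found together in 29 cells, 16 of plate 1 and 13 of plate 2, and Foxp3 was the sole marker of 2 cells.

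Cells without a marker still carried T cell genes. All 10 of them had a count of a T cell receptor locus or a CD3 chain. A count of a Treg gene, a tissue gene and a T cell gene together was present in 54 of 62 cells of plate 1 and 57 of 58 of plate 2. No Treg gene of the 16 was found in 5 cells and no T cell gene of the list in 2 cells, but no cell lacked both. Of the 47 cells with Foxp3, 34 had Gata3 or Il1rl1. Gata3, Il1rl1 or Areg was found in 76 cells, and all 3 together in 10.

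The number of markers followed the number of genes detected. Median genes per cell rose from 639 in cells with no marker to 852 in cells with 2, 1524 in cells with 4 and 3134 in cells with all 6. Across the 120 cells the Spearman correlation of the marker number with genes detected was 0.686 (0.752 on plate 1 and 0.664 on plate 2), given as a description of cells that share their library preparation. In the tertile of cells with fewest genes (39 cells, median 618 genes) Foxp3 was found in 7.69%, Ikzf2 in 46.2%, Gata3 in 15.4% and Icos in 10.3%. In the 41 cells with most genes (median 3006) it was found in 70.7%, Ikzf2 in 85.4%, Gata3 in 73.2% and Icos in 75.6%. Foxp3, Gata3 and Icos thus varied more with the number of genes detected than Ikzf2 and Il2ra (38.5% and 75.6%) did. A cell without a Foxp3 count is therefore not shown to lack Foxp3 RNA.

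**Figure D4:**
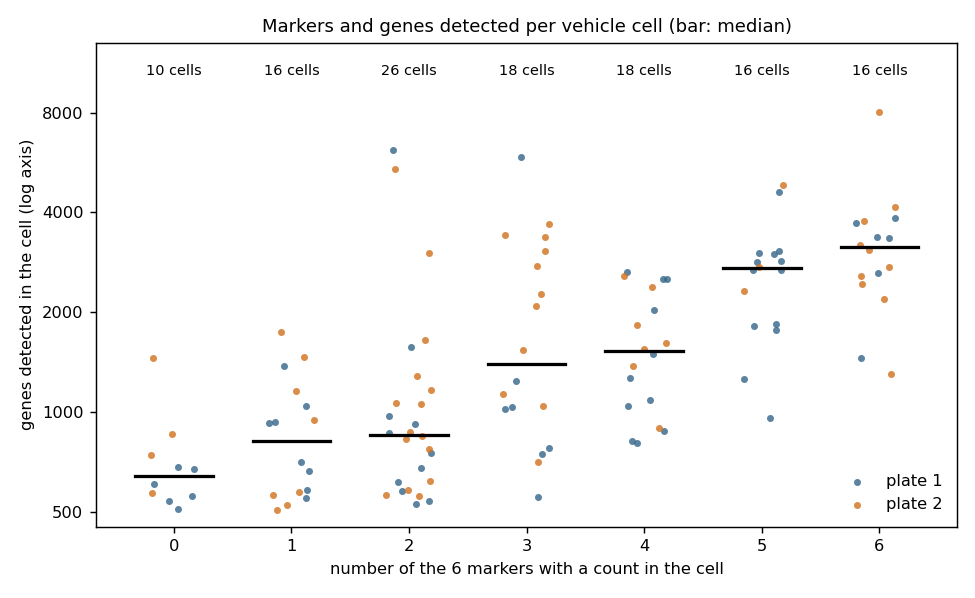
The horizontal axis is the number of the 6 markers with a count and the vertical axis the genes detected in the cell on a log scale. Each point is 1 vehicle cell, blue for plate 1 and orange for plate 2, spread sideways for display, and bars are medians. The median rises from 639 genes with no marker to 3134 with all 6.

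Pairs of markers were found together about as often as their frequencies and the number of genes detected per cell gave. The expected number was computed within each plate and tertile of genes detected, as if the genes were spread at random over those cells. Over the 15 pairs the ratio of observed to expected cells ran from 0.978 to 1.11 with a median of 1.07, and 14 ratios were above 1. When cells were grouped by plate alone the median ratio was 1.25. Foxp3 and Il2ra were found together in 35 cells where 32.5 were expected, Foxp3 and Ikzf2 in 35 (34.0 expected), Il2ra and Traf1 in 54 (48.6 expected) and Foxp3 and Traf1 in 35 (35.8 expected). Of the cells with Foxp3, 74.5% had Il2ra, and of those with Il2ra, 49.3% had Foxp3.

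**Figure D5:**
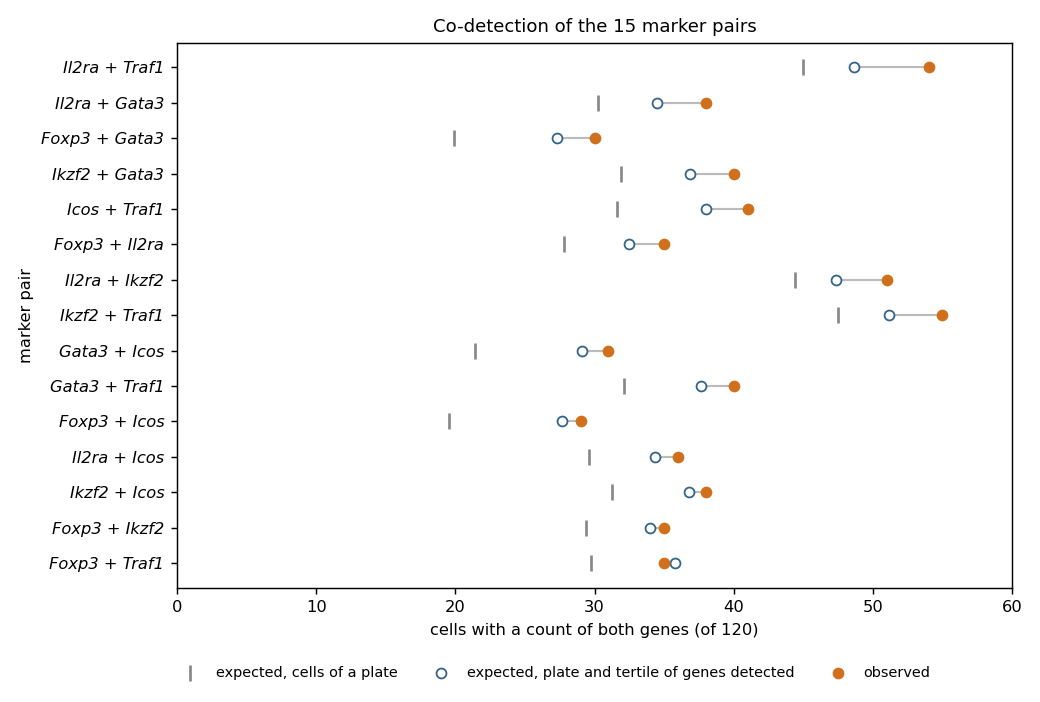
Each row is a pair of markers and the horizontal axis is the number of the 120 vehicle cells with a count of both. Orange points are observed numbers, open points the number expected within plate and tertile of genes detected, and grey ticks the number expected within plate alone. Observed numbers exceed the open points in 14 of 15 pairs, by at most a ratio of 1.11.

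Partners from the Treg, tissue and T cell lists spread more widely, over 330 combinations with at least 5 cells expected (ratios 0.377 to 1.55, median 1.08). The extremes of so many small counts are described here without a test. Foxp3 was found with Lck, the kinase next to CD4, in 32 cells where 23.7 were expected, with Cd3g in 17 (12.5 expected) and with Fgl2, a secreted inhibitor, in 10 (7.33 expected). Its lowest ratios were with Entpd1 (4 cells, 5.62 expected) and Nt5e (9 cells, 10.6 expected). Ikzf2 was found with Il1rl1 in 35 cells (27.5 expected), with Lrrc32 in 9 (7.14 expected) and with Tigit in 22 (18.0 expected), and least often with Rgs1 (10 cells, 11.9 expected) and Bcl2l11 (6 cells, 6.93 expected). Il2ra was highest with Tgfb1 (11 cells, 7.37 expected), Lrrc32 (9 cells, 6.24 expected) and Irf4 (14 cells, 10.2 expected), and lowest with Nt5e (9 cells, 14.5 expected) and Zap70 (15 cells, 18.1 expected). Gata3 was highest with Nrp1 (9 cells, 6.64 expected), Nfil3 (14 cells, 10.5 expected) and Irf4 (10 cells, 7.99 expected), and lowest with Entpd1 (2 cells, 5.30 expected) and Nt5e (8 cells, 10.5 expected). Icos was highest with Tgfb1 (10 cells, 6.43 expected), Dgat2 (17 cells, 12.0 expected) and Irf4 (11 cells, 8.06 expected). Traf1 was highest with Rgs1 (18 cells, 13.1 expected), Dgat2 (23 cells, 17.2 expected) and Tgfb1 (11 cells, 8.53 expected), and lowest with Penk (4 cells, 5.11 expected) and Bcl2l11 (6 cells, 7.34 expected). The lowest ratios of Icos were with Fgl2 (8 cells, 9.00 expected) and Entpd1 (5 cells, 5.36 expected).

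Signalling genes of the TNF receptor and NF-kB pathway were widely found. Of 26 genes, 17 were found in at least 25% of cells and 3 in at least 50%, with a median share of 31.6%. After Traf1 they were led by Nfkb1 (64.5% and 55.2%), the NF-kB inhibitor Nfkbia (56.5% and 58.6%), the deubiquitinase Tnfaip3 (50.0% and 48.3%) and Rel (46.8% and 48.3%). Of 32 genes of cytokine receptors and their signalling, 11 were found in at least 25% of cells. Stat3 led with 54.8% and 48.3%, before the interleukin 2 receptor chains Il2rb (37.1% and 48.3%) and Il2rg (40.3% and 43.1%), Jak1 (37.1% and 44.8%), Ifngr1 (33.9% and 43.1%) and Il7r (35.5% and 31.0%). In the summed counts 5 of the 26 TNF receptor genes, all of which passed the filter, were at least 2-fold higher on plate 2 and 6 lower, and of all 32 cytokine genes 5 were higher and 8 lower. Over all genes 41.6% were higher and 29.7% lower. Most genes compared were found in fewer than 25% of cells, and of these 75.4% were past 2-fold. Among genes found in at least 25% of cells 23.5 to 37.7% were past it. Whether either list exceeded genes found as often was not tested.

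Apart from the 6 markers (median share 50.7%), cytoskeletal genes had the highest median share of the lists, 37.7%. Of the 25 genes 19 were found in at least 25% of cells. After Actb and Vim these were Actg1 (56.5% and 60.3%), Pfn1 (51.6% and 51.7%), Cfl1 (38.7% and 58.6%) and Arpc2 (46.8% and 44.8%). All 25 passed the filter and 2, Arpc3 and Ezr, differed by 2-fold, both higher on plate 2. Over all genes 71.3% differed by 2-fold, and among those found in at least 25% of cells 23.5 to 37.7% did. Of 20 genes of MHC class I presentation, 9 were found in at least 25% of cells. After H2-K1 they were led by H2-D1 (66.1% and 69.0%), B2m (53.2% and 60.3%) and H2-Q6 (40.3% and 32.8%). MHC class I genes share sequence, so their counts are uncertain where reads were split between copies.

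Immediate early genes, which respond within minutes to stimulation, were found in most cells. Of 32 genes 14 were found in at least 25% of cells, and a cell held a median of 7 on plate 1 and 7.5 on plate 2. After Junb they were led by Nr4a3 (48.4% and 48.3%), Nr4a1 (46.8% and 43.1%) and Dusp1 (43.5% and 46.6%), then Zfp36l1 (45.2% and 44.8%) and Klf6 (45.2% and 41.4%). Their summed level had a median of 6247 CPM on plate 1 and 5777 CPM on plate 2. Among 15 heat shock genes, Hspa8 (50.0% and 46.6%) and Hsp90ab1 (41.9% and 48.3%) led, while the inducible Hspa1a and Hspa1b were listed at 0 in all kept cells. Of 15 glycolysis genes, Pkm (48.4% and 44.8%), Ldha (48.4% and 39.7%) and Aldoa (41.9% and 43.1%) led. Gapdh had a count in 25.8% and 37.9% of cells but at a mean of 0.53 and 3.75 CPM.

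Homing and residency genes were less frequent, with 6 of 23 found in at least 25% of cells. They were led by Itgae, Selplg, a selectin ligand (27.4% and 46.6%), and Cd69, which retains cells in tissue (29.0% and 27.6%). Ccr7, also in the naive list below, and Gpr183 (32.3% and 22.4%) followed. Cxcr3 was listed at 0. In the summed counts 9 of the 20 that passed the filter were at least 2-fold lower on plate 2 and 1 was higher, against 29.7% lower and 41.6% higher over all genes. The total past 2-fold was below the 71.3% of all genes, but among genes found in at least 25% of cells 23.5 to 37.7% were past it. Nothing is read from the number in this list. Genes of naive and recirculating T cells were led by Foxp1 (41.9% and 36.2%) and Satb1 (37.1% and 36.2%), while Ccr7 (30.6% and 25.9%) and Tcf7 (25.8% and 22.4%) had medians of 6.98 and 7.18 CPM in cells with a count. Of 13 checkpoint genes, the most frequent were Icos, Ctla4, Cd28 and Tigit, then Cd274, found in 21.0% and 12.1%, and Lag3 was listed at 0. None of 26 cell cycle genes was found in 25% of cells, but over all genes found only 5.2% were, so nothing is read from this number. Their median share was 4.63%, against 3.34% over all genes. At least 2 of them reached 10 CPM in 18 cells and at least 3 in 7 cells. The proliferation marker Mki67 was found in 4 and 7 cells (6.45% and 12.1%). Effector cytokine genes were rare, with Il22 in 7 and 9 cells, Tnf in 2 and 3, and Il17a, Il5 and Il13 at 0.

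Many genes that define other cells of skin were at 0, but not all. The keratinocyte genes Krt14, Krt15, Krt1, Krt10 and Krtdap, the mast cell and basophil genes Mcpt4, Cma1, Tpsb2, Fcer1a, Ms4a2 and Mcpt8, and the lymphocyte genes Cd8b1, Trdc, Klrb1c and Ncr1 had no count in any kept cell. Other members of these lists were found, and some in more cells than the 3.34% of the median gene. Kit, the stem cell factor receptor, was found in 25.8% and 25.9% of cells at a median of 7.18 CPM, with 10 cells at 100 CPM, while Cpa3 was found in 4 cells. Zbtb16, a transcription factor of innate-like T cells, was found in 14 cells (median 3.66 CPM) and Cd8a in 3. Among keratinocyte genes Sfn was found in 13 cells, 7 of them at 100 CPM, and Epcam in 6. The endothelial genes Pecam1 and Tek were found in 23 cells (median 132.3 CPM) and 18 cells (median 1.35 CPM), and the melanocyte gene Pmel in 18 cells (median 32.0 CPM). Their part in the results above was not tested. The summed level per cell of the 10 keratinocyte genes ran from 0 to 11711 CPM on plate 1 and from 0 to 2348 CPM on plate 2, with a median of 0 on both, and no cell held 2 of them at 10 CPM. The MHC class II genes H2-Aa (29.0% and 41.4%), H2-Ab1 (30.6% and 32.8%) and H2-Eb1 (29.0% and 25.9%) and the invariant chain Cd74 (35.5% and 50.0%), made by antigen-presenting cells, were found at medians of 8.63 to 38.3 CPM in cells with a count. At least 2 of the 17 macrophage and dendritic cell genes reached 10 CPM in 26 cells, and in 18 of these the genes were MHC class II and Cd74 alone. Of the 26 cells 25 had a marker and 25 a T cell gene. The highest 2 sums, 23529 and 23357 CPM, were in cells of plate 2, the first with 10 of the 17 genes and 4 markers and the second with 3 of them and no marker. Of the 9 genes of this list that passed the filter, all but Cd74 passed through plate 2 alone and so had to be higher there, and nothing is read from their number beside the 41.6% of all genes. The highest plate 2 cell gave 48.2% of the plate's counts of H2-Aa.

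Few cells held genes of stroma or blood. At least 2 fibroblast genes reached 10 CPM in 4 cells, 2 endothelial genes in 3 cells, 2 erythroid genes in 4 cells and 2 neutrophil genes in 1 cell. A single cell of plate 1, with 5871 genes detected, held all 7 erythroid genes at a sum of 40220 CPM together with 7 of the 8 fibroblast genes at 5681 CPM, 3 markers and 5 T cell genes. The haemoglobin genes were lower in the summed counts of plate 2, and this cell gave 99.9 to 100% of the plate 1 counts of each. Without the highest cell of each plate the direction of Hba-a1 turned, from a mean of 178.8 CPM on plate 1 and 13.9 CPM on plate 2 to 0 and 9.02 CPM. By cells the order was also the other way, with Hba-a1 in 1 cell of plate 1 and 10 of plate 2, and Hba-a2 in 1 and 5. In all, 31 cells (13 of plate 1 and 18 of plate 2) held at least 2 genes of another cell type at 10 CPM. Without them, Foxp3 was found in 37.4% of cells as a mean of the plates (39.2% with them), Il2ra in 59.6% (59.1%), Ikzf2 in 66.4% (62.5%), Gata3 in 40.7% (42.2%), Icos in 40.7% (41.6%) and Traf1 in 56.5% (63.4%). The median stayed at 3 markers per cell.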

How the data were processed

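Single-cell cDNA was made with oligo dT primers and a template-switch oligo, then amplified and tagmented, per the labels' protocols, which mention no molecular identifiers. The authors deposited 1 matrix of read counts, with 50556 gene symbols as rows and wells as columns. The submitters' processing notes name Trimmomatic 0.39, STAR 2.7.3a, SAMtools 1.12 and the mm39 build. How reads were assigned to genes, by which tool, annotation and strand setting, was not given in the sources used here, so overlapping genes and near-identical copies are uncertain.

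Groups and plates came from the labels. Single-cell vehicle wells with at least 500 genes and 10000 counts were kept. Doublets were not called. Each well was meant to receive 1 sorted cell, which does not exclude that 2 cells entered a well. No 2 kept wells held identical counts, which bears on copied wells and not on doublets. A gene was detected at 1 count or more. Levels are CPM of a cell, averaged over the cells of a plate. Plates were compared on summed counts over genes with at least 10 CPM in a plate, at a 2-fold line, with values under 3 counts set to 3, and on log2(mean CPM + 1). No test was run, since 1 condition with 2 plates holds no comparison of groups. Cells were thinned without replacement to 200000 counts, which left out 3 cells of plate 1 and 1 of plate 2. Expected co-detection multiplied gene frequencies within plate and tertile of genes detected. Exact binomial (Clopper-Pearson) intervals are at 95%. GENCODE M21 lengths covered 80.4% of the genes found.

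Named were the 6 markers, the 20 genes of largest share, the 20 of highest mean CPM among those in 25% of the cells of each plate, up to 6 per list, 6 per direction of largest difference in thinned share, 5 partners per marker (3 of highest and 2 of lowest ratio), the members of the Treg, tissue and T cell lists, and Penk. A few listed genes are not reported here. The rankings omit ribosomal, mitochondrial and predicted genes and the variable segments of receptors. Genes named beside a count of 2-fold differences, or as listed at 0, were chosen after their values were seen. The cells, lists and rules were chosen with earlier results of these data known. Alternatives were other filters on cells, thinning, a 10 CPM line for detection, another pseudocount, no level filter, TMM (edgeR 4.0.16) and size factors (DESeq2 1.42.0, R 4.3.3), means over cells, each gene without its highest cell, and leaving out each plate. Level per kb and the removal of cells with genes of other cell types were added after seeing the data. The scripts used Python 3.11.15, numpy 2.4.6, pandas 2.3.3 and scipy 1.17.1, and were tested on simulated counts.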

Additional observations from a re-analysis of the deposited data

Results flagged for a closer look

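Depth set 2 control wells of plate 2 apart from the other wells of their kind on that plate, among 8 groups of wells checked. The plate 2 well of 10 cells with the most counts held 6182812, against 4115365, 4206337 and 4366035 in the other 3. It was not deep beside plate 1, where such wells held 3753500, 6583917, 7234997 and 9159522. The deepest plate 2 well without a cell held 1527760 counts, against 0, 0, 144027 and 428587 in the other 4. This well without a cell had 885 genes with a count, none of the 6 markers, 1 of the 16 Treg genes, 3 of the 30 tissue genes and 2 of the T cell genes. Chance flags about 1 in 20 such groups.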

How the results depend on the processing

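The number of genes found in at least 50% of cells, 0.594% of those found, followed the filter and the depth: it was 451 with at least 1000 genes per cell, 47 with every vehicle well that had a count, 66 and 98 after thinning to 200000 and 400000 counts, and 33 at a line of 10 CPM, while either plate alone gave a number within 1.5 times the main one. The median of 3 markers per cell became 4 with at least 1000 genes and 2 with every well, and stayed at 3 under thinning, a 10 CPM line and either plate alone. The Spearman correlation of plate levels (0.262) was 0.480 with no level filter, 0.383 without each gene's highest cell, 0.178 without cells holding genes of another cell type, and 0.221 to 0.270 under the other settings. The median co-detection ratio (1.07) was 1.25 with plate alone, 1.04 without those cells, and 1.04 to 1.08 with a plate left out. Of the 20 highest genes 10 were also among the 20 by median CPM and 8 per kb. The share of genes past 2-fold ran from 62.5% to 76.6% over all settings. The part of those past 2-fold that was higher on plate 2 was 58.3%, 53.3% with TMM scaling and 49.5% without cells holding genes of another cell type, where the median log2 difference turned from 0.35 to -0.04. The cause of these movements was not tested. No paired analysis was possible because the result comes from no test. Depth limits every share, and so does the number of genes detected per cell. That number stayed wide apart at 200000 counts per cell, up to 5849 genes on plate 1 (median 725) and 6222 on plate 2 (median 968). The use of 2 plates limits every difference.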
